A study of Mus musculus with 12 samples.

Results

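Immediate early and heat shock genes were followed across sorted CD4 T cells of the mouse gut epithelium. Members were taken by name from a list of 40 genes: a gene counted as a member where a probe of the intensity table carried its symbol, in upper or lower case. That gave 34 of the 17916 gene names on the array, with 49 probes. The rule uses names and no signal, but the list of names was written with earlier results of these data known. Of these 34 genes, 31 were measured, meaning that a probe had a detection p-value under 0.05 on at least 2 arrays, and 18 were detected on all 12 arrays. Atf3, Egr3 and Ier2 had a probe that did not reach this minimum. Fosl2, Dusp5 and Hspa1b had no probe under any symbol. Jund, Ppp1r15a and Hsph1 had a probe only under an older symbol and so fall outside the rule. Their values are given separately.

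The study profiled CD4 T cells from the epithelium of the small intestine, sorted by a green fluorescent reporter of ThPOK, the transcription factor that maintains the helper lineage, and by surface CD8a. The 3 sorted subsets are called ThPOK+ (ThPOK-positive, CD8a-negative), CD8a- (negative for both) and CD8a+ (ThPOK-negative, CD8a-positive). All cells came from the B6-ThPOK-GFP reporter strain, and the labels give an age of 10 to 12 weeks. They were isolated either from reporter mice without further treatment (WT) or from RAG-/- animals, which have no T or B cells of their own, after transfer of naive CD4 T cells of reporter mice (TR), a model of colitis. Each of the 6 groups had 2 arrays, numbered replicate 1 and 2. Nothing in the labels says whether these came from separate or pooled animals, so a p-value here reflects the scatter of these arrays alone, part of which may be technical. In the TR host every T cell descends from the transferred cells, while the reporter mice hold their own full range of lymphocytes.

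Immediate early genes are transcribed within minutes of a signal from the T cell receptor, a cytokine receptor or a stress, without new protein synthesis, and their transcripts are short-lived. The first wave holds transcription factors (the Fos and Jun proteins that pair as AP-1, the Egr zinc fingers, the Nr4a orphan nuclear receptors), and with them the brakes that end the signal: dual-specificity phosphatases of the MAP kinases, RNA-decay proteins of the Zfp36 family, and the NF-kB inhibitors Nfkbia and Tnfaip3. In T cells, Nr4a genes follow calcium and NFAT signalling and are also known for sustained expression in chronically stimulated and tissue-resident cells. Heat shock genes encode chaperones that refold proteins and are switched on by the factor HSF1. Both classes are also known to respond to the handling of cells outside the body.

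The 12 arrays fall into 4 sets of 3, each holding the 3 subsets of 1 host and replicate number, and the sets differed in quality. The arrays of replicate 1 had 12024 to 13091 detected probes, those of TR replicate 2 had 7520 to 8195, and those of WT replicate 2 had the fewest, 6721 to 7118. Which host the replicate 1 arrays came from is in doubt, because the 2 deposited tables name opposite hosts for them. The hosts of replicate 2 are the same in both. Host names below are those of the intensity table. Comparisons of subsets used the set as a block and hold whichever host replicate 1 came from, and the host values of single members are also given with those hosts exchanged. The T cell markers Cd3e, Cd3g, Cd3d, Lck and Cd4 were detected on 12 of 12 arrays. From the same list Cd2 was detected on 11 arrays and Trac on 5, and Cd5 had no probe. In a bulk sample, fewer cells of a type and less RNA per cell cannot be told apart. Signals are log2 of the background-corrected, quantile-normalized intensity of 1 probe, so that 1 unit is a doubling, and levels are not compared between genes. Where 4 values of a subset are listed, they run in the order TR replicate 1, TR replicate 2, WT replicate 1, WT replicate 2.

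**Figure D1:**
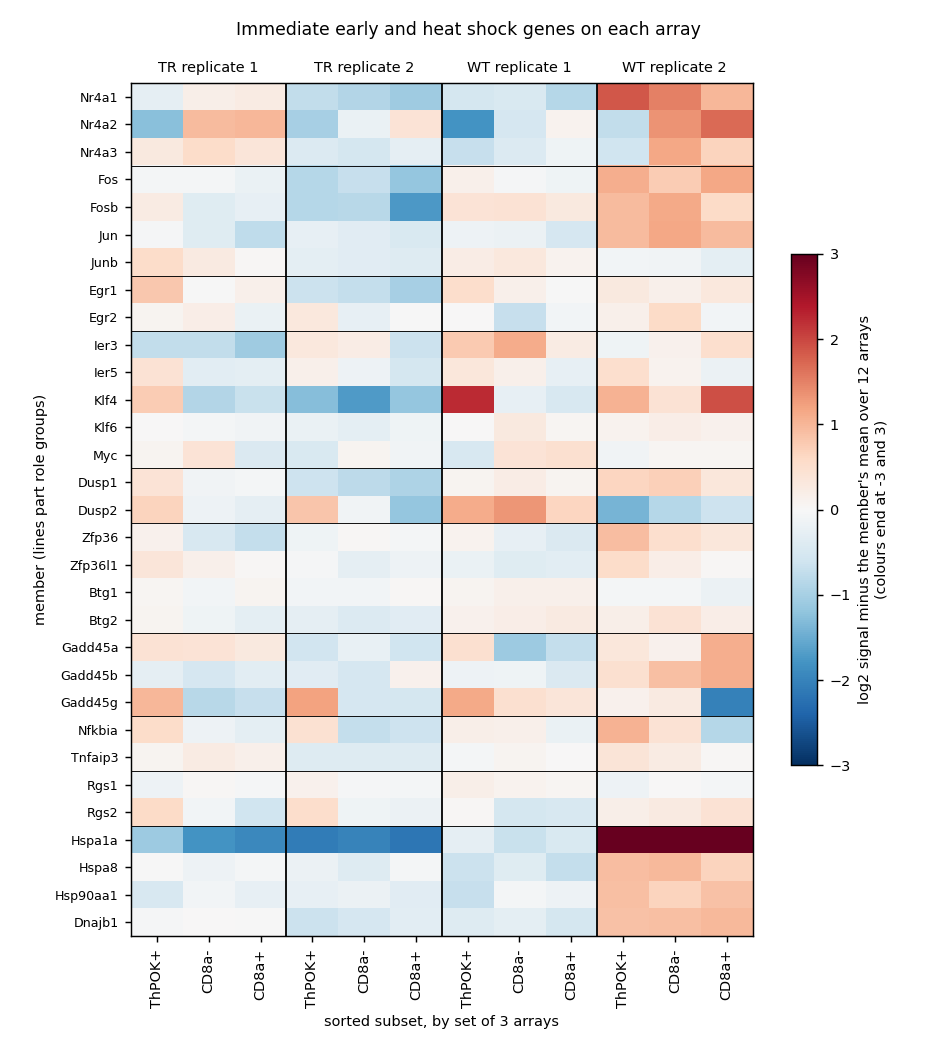
Signal of the 31 measured members on the 12 arrays, each as log2 signal minus that gene's mean over the 12 arrays (colour), with arrays grouped by set and horizontal lines between role groups. Nr4a2 follows the subset in every set, while Hspa1a and 9 other members are high on all 3 arrays of WT replicate 2. With median scaling only Hspa1a was above the other 9 arrays there. Colours end at -3 and 3.

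Nr4a2 was the only member called in a comparison of subsets, that of CD8a+ with ThPOK+ cells. Its signal was higher in both ThPOK-negative subsets than in ThPOK+ cells, and neither range overlapped that of the ThPOK+ arrays. Ier5, Nfkbia and Egr2, described below, also had CD8a+ ranges that did not overlap those of ThPOK+ cells, in the lower direction. The share of all genes with such a separation was not counted. Nr4a2 encodes an orphan nuclear receptor that binds DNA without a known ligand. In ThPOK+ cells its 4 signals were 7.40, 7.67, 6.88 and 7.93, a mean of 7.47 ± 0.45 (SD, n = 4). In CD8a- cells they were 9.61, 8.46, 8.16 and 10.02, a mean of 9.06 ± 0.89 (SD, n = 4). In CD8a+ cells they were 9.66, 9.07, 8.76 and 10.36, a mean of 9.46 ± 0.70 (SD, n = 4). Within every set the order was ThPOK+, then CD8a-, then CD8a+.

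Between CD8a+ and ThPOK+ cells Nr4a2 rose by 1.99 ± 0.24 (SE, log2), 3.98-fold, with a limma adjusted p of 0.0118. It was the only one of 31 members called in this comparison, in which 0.565% of all 10612 genes were called. The difference was 2.26, 1.40, 1.88 and 2.43 in the 4 sets, higher in 4 of 4. It was 2.07 in the arrays of replicate 1 alone and 1.92 in those of replicate 2 alone. Between CD8a- and ThPOK+ cells the difference was 1.59 ± 0.24 (adjusted p = 0.0577), with 2.21, 0.79, 1.29 and 2.09 in the 4 sets, and it did not pass the threshold of 0.05. In that comparison 0.0565% of all genes were called and no member was. Both comparisons use the same ThPOK+ arrays. CD8a+ and CD8a- cells differed by 0.40 ± 0.24 (adjusted p = 0.895).

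The call for CD8a+ cells was lost, at differences of 1.85 to 2.01, without TR ThPOK+ replicate 1 (adjusted p = 0.0695), without TR CD8a+ replicate 1 (adjusted p = 0.0578), without the 3 arrays of WT replicate 2 (adjusted p = 0.0533) or without the 3 arrays richest in Paneth and goblet cell transcripts (adjusted p = 0.13). It was also lost in fits without the set block (adjusted p = 0.438 with 6 group means, 0.254 with the replicate number as a block) and with only the 8 arrays compared (0.114), in which the difference was again 1.99.

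**Figure D2:**
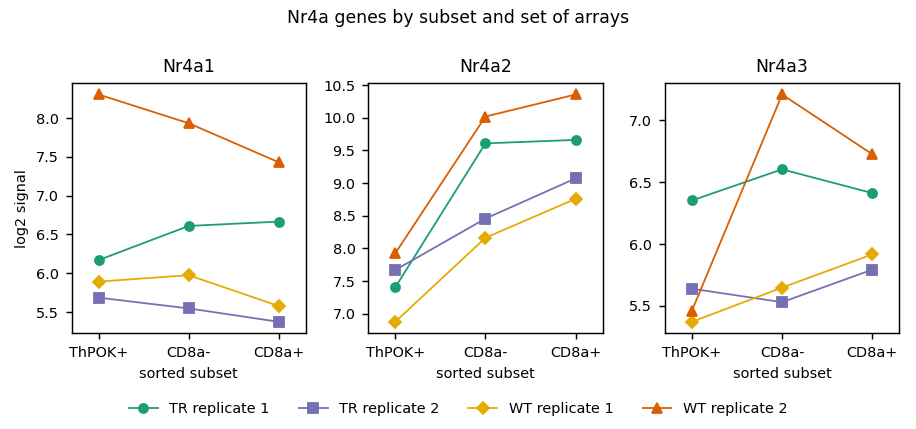
Log2 signal of Nr4a1, Nr4a2 and Nr4a3 (one panel each, each with its own scale) in the 3 sorted subsets; each line joins the 3 arrays of 1 set. The 4 Nr4a2 lines all rise from ThPOK+ (6.88 to 7.92) to CD8a+ cells (8.76 to 10.36), whereas Nr4a1 separates the arrays of WT replicate 2 from the rest.

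Nr4a1 (also called Nur77), the usual reporter of recent T cell receptor signalling, did not share this pattern. Its signals were 6.17, 5.69, 5.89 and 8.30 in ThPOK+ cells, 6.61, 5.55, 5.98 and 7.93 in CD8a- cells and 6.67, 5.37, 5.58 and 7.43 in CD8a+ cells. The last value of each series, WT replicate 2, was the highest, and all 3 of its arrays lay above the other 9, though not with median scaling. The difference between CD8a+ and ThPOK+ cells was -0.25 ± 0.21 (adjusted p = 0.765), positive in 1 of 4 sets. Nr4a1 was detected on 8 arrays and on none of TR replicate 2.

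Nr4a3, the third receptor of the family, was dim. Its signals were 6.35, 5.64, 5.37 and 5.46 in ThPOK+ cells, 6.60, 5.53, 5.65 and 7.21 in CD8a- cells and 6.41, 5.79, 5.92 and 6.73 in CD8a+ cells. It was detected on 6 of 12 arrays, of which 1 held ThPOK+ cells. CD8a+ minus ThPOK+ cells gave 0.51 ± 0.28 (adjusted p = 0.613), with 0.06, 0.16, 0.55 and 1.27 in the 4 sets. It was thus positive in 4 of 4 sets but did not pass the test. The 0.16 of TR replicate 2 and the 1.27 of WT replicate 2 each compare arrays on which Nr4a3 was not detected. Its other probes, detected on 0 and 1 arrays, were not kept. A test of the difference between members was not made.

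The promoter window of Nr4a2, the called member, is the 300 bases around its RefSeq start, at chr2:57123954-57124253 on the minus strand of GRCm38.p6. Capitals mark a TATA box (TATAAA, here on the opposite strand), the only one of the motifs searched that the window held.
Nr4a2: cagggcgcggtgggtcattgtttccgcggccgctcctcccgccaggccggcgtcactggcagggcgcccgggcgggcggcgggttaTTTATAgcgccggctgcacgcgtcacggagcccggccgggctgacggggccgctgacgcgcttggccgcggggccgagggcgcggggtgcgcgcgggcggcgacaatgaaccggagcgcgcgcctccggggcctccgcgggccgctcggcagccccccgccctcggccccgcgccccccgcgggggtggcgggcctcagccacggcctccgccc
NBRE, the sequence AAAGGTCA that Nr4a monomers bind, was in 0 of the 27 member promoters searched and in 1.7% of the promoters of 27025 genes.

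Of the AP-1 subunit genes, Fos, Fosb and Jun separated the sets of arrays. After quantile normalization each was higher on all 3 arrays of WT replicate 2 than on the other 9, and with median scaling none was. Fos signals in WT replicate 2 were 10.56, 10.24 and 10.63 in ThPOK+, CD8a- and CD8a+ cells. In TR replicate 2 they were 8.62, 8.77 and 8.30 in the same order, below all other arrays. The sets of replicate 1 lay between, at 9.42, 9.42 and 9.28 for TR and 9.63, 9.45 and 9.34 for WT. Fosb had 10.76, 10.95 and 10.38 in WT replicate 2 and 8.97, 8.997 and 8.10 in TR replicate 2. In replicate 1 it had 10.08, 9.45 and 9.57 in TR and 10.23, 10.26 and 10.11 in WT, again between these. Jun had 10.26, 10.48 and 10.27 in WT replicate 2 and 8.55 to 9.28 on the other 9 arrays. TR replicate 2 was low for Fos and Fosb and within the range of replicate 1 for Jun.

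Between CD8a+ and ThPOK+ cells, Fosb differed by -0.47 ± 0.20 (adjusted p = 0.479), lower in 4 of 4 sets, Fos by -0.17 ± 0.16 (adjusted p = 0.804) and Jun by -0.32 ± 0.16 (adjusted p = 0.55). Junb, the AP-1 subunit that accompanies effector T cell differentiation, was detected on 5 arrays, at 5.14 to 6.07 over the 12 arrays, and differed by -0.23 ± 0.14. In 4 of 4 sets the CD8a+ array had the lowest Junb signal of the 3. However, Junb was detected on 3 of 3 arrays in WT replicate 1 alone. It was detected on 2 of 3 in TR replicate 1 and on 0 of 3 in each set of replicate 2, so no order is read in these. The undetected signals of WT replicate 2 lay within the range of the other 9 arrays. All 4 measured AP-1 members thus had negative differences (median over all genes 0.00), that of Junb resting largely on undetected signals, and none passed the test. Jund, which is outside the rule, was detected on 4 arrays and differed by -0.23 ± 0.26.

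Egr1, a zinc finger factor induced by the MAP kinase pathway, was low in TR replicate 2 and not high in WT replicate 2. Its signals in ThPOK+, CD8a- and CD8a+ cells were 9.77, 9.72 and 9.42 in TR replicate 2 and 10.72, 10.57 and 10.75 in WT replicate 2. Replicate 1 gave 11.24, 10.42 and 10.57 in TR and 10.94, 10.57 and 10.41 in WT. CD8a+ and ThPOK+ cells differed by -0.38 ± 0.17 (adjusted p = 0.526). Egr2, a related factor tied to T cell unresponsiveness, separated no set from the rest. It had 9.32, 9.55, 9.25 and 9.38 in ThPOK+ cells, 9.43, 8.97, 8.53 and 9.81 in CD8a- cells and 9.02, 9.21, 9.14 and 9.15 in CD8a+ cells. CD8a+ cells were below ThPOK+ cells in 4 of 4 sets, without overlap, by a difference of -0.24 ± 0.23 that did not pass the test (adjusted p = 0.797).

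Several inducible inhibitors and stress genes had lower signal in CD8a+ than in ThPOK+ cells in every set, but none passed the test. Gadd45g, a stress-induced gene whose product activates p38 and JNK signalling in T cells, had the largest negative difference of the 31 members between CD8a+ and ThPOK+ cells. Its signals were 9.60, 9.81, 9.74 and 8.73 in ThPOK+ cells, 7.78, 8.09, 9.09 and 8.87 in CD8a- cells and 7.90, 8.08, 8.96 and 6.56 in CD8a+ cells. The ThPOK+ arrays were the highest within 3 of the 4 sets, and in WT replicate 2 the CD8a- array was slightly above. CD8a+ and ThPOK+ cells differed by -1.59 ± 0.39 (adjusted p = 0.15), with -1.70, -1.73, -0.77 and -2.17 in the 4 sets. The adjusted p was 0.0346 without WT CD8a- replicate 2, at the same difference, and 0.0337 in the deposited log2 table, at a difference of -1.01. Gadd45g was not called in 13 of 14 alternatives, nor in 11 of 12 fits that left out a single array. The adjusted p was 0.662 with no replicate block. Without WT CD8a+ replicate 2 it was 0.281, at a difference of -1.21. Gadd45g was not detected on that array, which gave the largest of the 4 set differences. CD8a- and ThPOK+ cells differed by -1.01 ± 0.39 (adjusted p = 0.513).

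The Gadd45g window, at chr13:51846425-51846724 on the plus strand of GRCm38.p6, is shown with its TATA box (TATAAA) in capitals.
Gadd45g: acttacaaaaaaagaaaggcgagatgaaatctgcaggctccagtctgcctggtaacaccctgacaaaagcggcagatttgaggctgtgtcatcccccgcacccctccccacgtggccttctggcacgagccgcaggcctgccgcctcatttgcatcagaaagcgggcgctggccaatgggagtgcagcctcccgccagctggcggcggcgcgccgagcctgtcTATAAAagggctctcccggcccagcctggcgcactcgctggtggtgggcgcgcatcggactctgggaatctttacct
A TATA box was in the windows of 9 of 27 members (33.3%) and of 15.7% of all genes.

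Nfkbia encodes IkBa, which holds NF-kB in the cytoplasm and is itself an NF-kB target. Its signals were 6.78, 6.67, 6.40 and 7.27 in ThPOK+ cells, 6.06, 5.52, 6.38 and 6.66 in CD8a- cells and 5.93, 5.60, 6.03 and 5.36 in CD8a+ cells. The ranges of ThPOK+ and CD8a+ cells did not overlap, and the probe was detected on 4 of 4 arrays of ThPOK+ and 2 of 4 of CD8a+ cells. The difference was -1.05 ± 0.27 (adjusted p = 0.161), from -0.37 in WT replicate 1 to -1.92 in WT replicate 2. Tnfaip3, which encodes the ubiquitin-editing enzyme A20, was detected on all 12 arrays and showed no such order. It had 11.08, 10.61, 10.94 and 11.38 in ThPOK+ cells, 11.24, 10.62, 11.09 and 11.24 in CD8a- cells and 11.14, 10.62, 11.02 and 11.04 in CD8a+ cells, a difference of -0.05 ± 0.14 between CD8a+ and ThPOK+ cells (adjusted p = 0.95). All 3 arrays of TR replicate 2 were its lowest.

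Ier5, an immediate early gene whose product acts on HSF1, had the smallest adjusted p among members after Nr4a2. Its signals were 8.59, 8.31, 8.50 and 8.67 in ThPOK+ cells, 7.83, 8.01, 8.31 and 8.26 in CD8a- cells and 7.88, 7.63, 7.92 and 7.98 in CD8a+ cells. The 4 set differences between CD8a+ and ThPOK+ cells were alike at -0.72, -0.68, -0.58 and -0.69, and the ranges did not overlap. The mean difference was -0.67 ± 0.15 (adjusted p = 0.0976). Between CD8a- and ThPOK+ cells it was -0.41 ± 0.15 (adjusted p = 0.476), also lower in 4 of 4 sets.

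Markers of other cells differed between the subsets alongside these genes. The mean signal (log2) of a list of naive and circulating T cell genes (7 of 8 measured) was 7.67 to 9.50 in ThPOK+, 6.64 to 7.66 in CD8a- and 6.29 to 7.21 in CD8a+ cells. Of this list S1pr1 was detected on 1 array. The mean of the Paneth and goblet list (9 of 13 measured) was 6.19 to 9.90, 5.40 to 6.60 and 5.28 to 10.15 in the same order, and that of the epithelium list (9 of 12 measured) was 6.43 to 9.38, 6.28 to 7.21 and 6.26 to 9.24. The part of these cells in the subset differences of Gadd45g, Nfkbia and Ier5 was not tested. Without the 3 arrays highest in the Paneth and goblet list, no member was called between CD8a+ and ThPOK+ cells. In that fit 10 of 10612 genes were called, against 60 with all arrays, and the Nr4a2 difference was 1.87. That fit has fewer arrays, so the lost call is no test of the part of these cells.

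**Figure D3:**
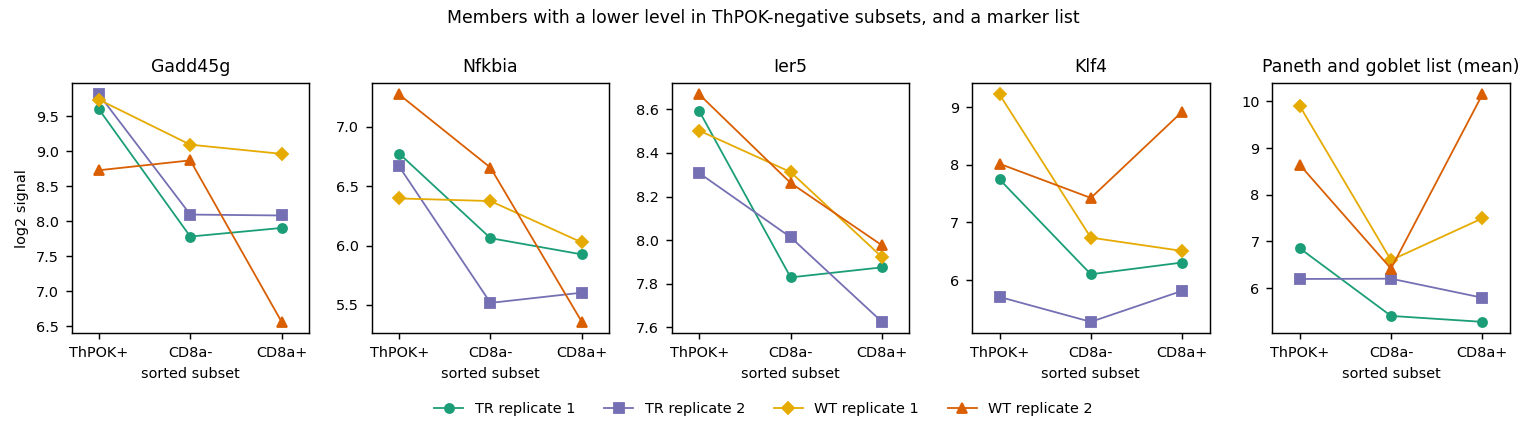
Log2 signal of Gadd45g, Nfkbia, Ier5 and Klf4, and the mean level (log2) of Paneth and goblet genes, in the 3 sorted subsets (each panel with its own scale); each line joins the 3 arrays of 1 set. Ier5 and Nfkbia are lower in CD8a+ than in ThPOK+ cells in 4 of 4 sets, while the Klf4 line falls and then rises, as the marker list does, in WT replicate 2.

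Klf4, by its brightest probe, was highest on the 3 arrays highest in Paneth and goblet transcripts. It encodes a zinc finger factor that restrains T cell division and is also abundant in goblet cells and differentiated gut epithelium. Its signals were 7.75, 5.71, 9.22 and 8.02 in ThPOK+ cells, 6.10, 5.28, 6.74 and 7.43 in CD8a- cells and 6.31, 5.81, 6.51 and 8.92 in CD8a+ cells. The 3 highest arrays were WT ThPOK+ replicate 1, WT CD8a+ replicate 2 and WT ThPOK+ replicate 2. The same 3 arrays had the highest Paneth and goblet means, at 9.90, 10.15 and 8.64, against 5.28 to 7.49 on the other 9. In the epithelium list WT CD8a+ replicate 1 (7.76) ranked above WT ThPOK+ replicate 2 (7.57). A second, dimmer Klf4 probe, detected on 3 arrays, had 7.19 and 7.13 on WT ThPOK+ replicates 1 and 2. On WT CD8a+ replicate 2 that probe had 5.56. The part of epithelial cells in the Klf4 signal was not tested. Klf4 differed by -1.29 ± 0.49 between CD8a- and ThPOK+ cells (adjusted p = 0.512) and by -0.79 ± 0.49 between CD8a+ and ThPOK+ cells (adjusted p = 0.672), the latter with set differences from -2.72 to 0.90.

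Ier3, an immediate early gene that protects cells from apoptosis, separated the sets of replicate 1. It had 7.33, 7.66 and 6.78 in the ThPOK+, CD8a- and CD8a+ arrays of WT replicate 1 and 5.79, 5.81 and 5.49 in those of TR replicate 1. In replicate 2 it had 6.42, 6.66 and 7.04 in WT and 6.85, 6.76 and 5.90 in TR. It was the only member for which all 3 arrays of TR replicate 1 lay below the other 9, where 1.25% of all genes did. Klf6 (12.33 to 12.91 over the 12 arrays) and Myc (5.13 to 6.10, detected on 4 arrays) had differences between CD8a+ and ThPOK+ cells of 0.02 ± 0.14 and 0.25 ± 0.23. A second Myc probe had a difference of -0.11, opposite in sign, and a second Klf6 probe was highest on the arrays of WT replicate 2, which the brighter probe was not.

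The phosphatases went different ways. Dusp1, which ends p38 and JNK signalling in the nucleus, was detected on all arrays. It had 12.10, 12.18 and 11.81 in ThPOK+, CD8a- and CD8a+ cells of WT replicate 2 and 10.85, 10.68 and 10.54 in TR replicate 2, below all other arrays. Replicate 1 gave 11.88, 11.37 and 11.42 in TR and 11.56, 11.69 and 11.54 in WT. Dusp2 (PAC-1), a nuclear phosphatase of activated lymphocytes, had the opposite order in ThPOK+ and CD8a- cells of replicate 2. In CD8a+ cells of replicate 2 it was not detected in either host, so no order is read there. It was not detected on any array of WT replicate 2, at 5.47, 6.01 and 6.25. It had 7.71, 6.77 and 5.71 in TR replicate 2, the last not detected. In replicate 1 it had 7.54, 6.71 and 6.60 in TR and 7.99, 8.19 and 7.52 in WT. CD8a+ and ThPOK+ cells differed by -0.27 ± 0.16 for Dusp1 (adjusted p = 0.641) and by -0.66 ± 0.37 for Dusp2 (adjusted p = 0.63). A second, dimmer Dusp2 probe differed by -0.10.

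Of the RNA-decay and antiproliferative genes, Zfp36 stood out by set after quantile normalization. Zfp36 encodes tristetraprolin, which destabilizes cytokine transcripts. Its signals in ThPOK+, CD8a- and CD8a+ cells were 12.00, 11.58 and 11.42 in WT replicate 2, above the other 9 arrays, and 10.95, 11.11 and 11.02 in TR replicate 2. Replicate 1 gave 11.21, 10.60 and 10.36 in TR and 11.18, 10.82 and 10.65 in WT. CD8a+ and ThPOK+ cells differed by -0.47 ± 0.18 (adjusted p = 0.397), lower in 3 of 4 sets. Its relative Zfp36l1 had 11.61, 11.22, 11.04 and 11.81 in ThPOK+ cells, 11.39, 10.97, 10.89 and 11.44 in CD8a- cells and 11.28, 11.11, 10.93 and 11.28 in CD8a+ cells, a difference of -0.27 ± 0.14 between CD8a+ and ThPOK+ cells (adjusted p = 0.577) that was negative in 4 of 4 sets. The antiproliferative genes Btg1 and Btg2 spanned 12.55 to 12.87 and 10.81 to 11.67 over the 12 arrays, with differences of 0.02 ± 0.13 and -0.07 ± 0.15.

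The remaining stress and signalling genes had no order by subset. Gadd45a, a p53 target, had 7.25, 7.22 and 7.12 in TR replicate 1 and 7.17, 6.94 and 7.92 in WT replicate 2, in the order ThPOK+, CD8a-, CD8a+. It had 6.23, 6.59 and 6.23 in TR replicate 2 and 7.30, 5.73 and 6.10 in WT replicate 1, so that no set was high or low for it as a whole. Gadd45b, induced by NF-kB, had 7.18, 7.62 and 7.80 in WT replicate 2 and 6.21 to 6.83 on the other 9 arrays. CD8a+ and ThPOK+ cells differed by -0.15 ± 0.33 for Gadd45a (adjusted p = 0.934) and by 0.19 ± 0.20 for Gadd45b (adjusted p = 0.822).

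Rgs1 and Rgs2 encode proteins that shut off G protein signalling of chemokine receptors. Rgs1, known for its high expression in gut lymphocytes, was detected on all arrays and nearly constant. It had 12.48, 12.78, 12.82 and 12.48 in ThPOK+ cells, 12.68, 12.62, 12.75 and 12.64 in CD8a- cells and 12.60, 12.59, 12.69 and 12.59 in CD8a+ cells, a difference of -0.03 ± 0.14 between CD8a+ and ThPOK+ cells (adjusted p = 0.972). Rgs2 was detected on 2 arrays, both of ThPOK+ cells of replicate 1. It had 6.24, 6.18, 5.68 and 5.82 in ThPOK+ cells, 5.58, 5.52, 5.12 and 5.92 in CD8a- cells and 5.04, 5.47, 5.16 and 6.08 in CD8a+ cells, a difference of -0.54 ± 0.22 (adjusted p = 0.453).

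Over the 31 measured members, the median difference between CD8a+ and ThPOK+ cells was -0.24, against 0.00 over all genes. At an unadjusted p under 0.05, 6 members (Ier5, Gadd45g, Nfkbia, Zfp36, Rgs2 and Fosb) were lower in CD8a+ cells and 1 (Nr4a2) was higher. Over all genes 4.78% were lower and 5.01% higher. Of these members, Rgs2 was detected on ThPOK+ arrays alone, so it passed the detection filter only through the subset where it was higher. With detection on at least 6 arrays required, Rgs2 dropped out, and 6 members of either direction and 847 genes were at that level. By sign alone, 9 of 31 members (Fosb, Junb, Egr2, Ier5, Dusp1, Zfp36l1, Gadd45g, Nfkbia and Hspa1a) were lower in 4 of 4 sets, where 8.63% of all genes were. Another 2 (Nr4a2 and Nr4a3) were higher in 4 of 4, where 9.04% were. Signs of dim members partly compare undetected signals, as for Nr4a3 and Junb in TR replicate 2 and WT replicate 2, and Hspa1a in TR replicate 2. Between CD8a- and ThPOK+ cells the median was -0.07 (0.01 over all genes). There 1 member (Nr4a2) was higher and 4 (Klf4, Gadd45g, Nfkbia and Ier5) were lower at an unadjusted p under 0.05, against 4.48% and 4.17% of all genes. By sign, 5 members were lower in 4 of 4 sets (8.37% of all genes) and 3 were higher (9.58%). Between CD8a+ and CD8a- cells limma called 0 of 10612 genes (0%) and no member. There 541 genes (5.1%) and 0 of 31 members had an unadjusted p under 0.05.

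**Figure D4:**
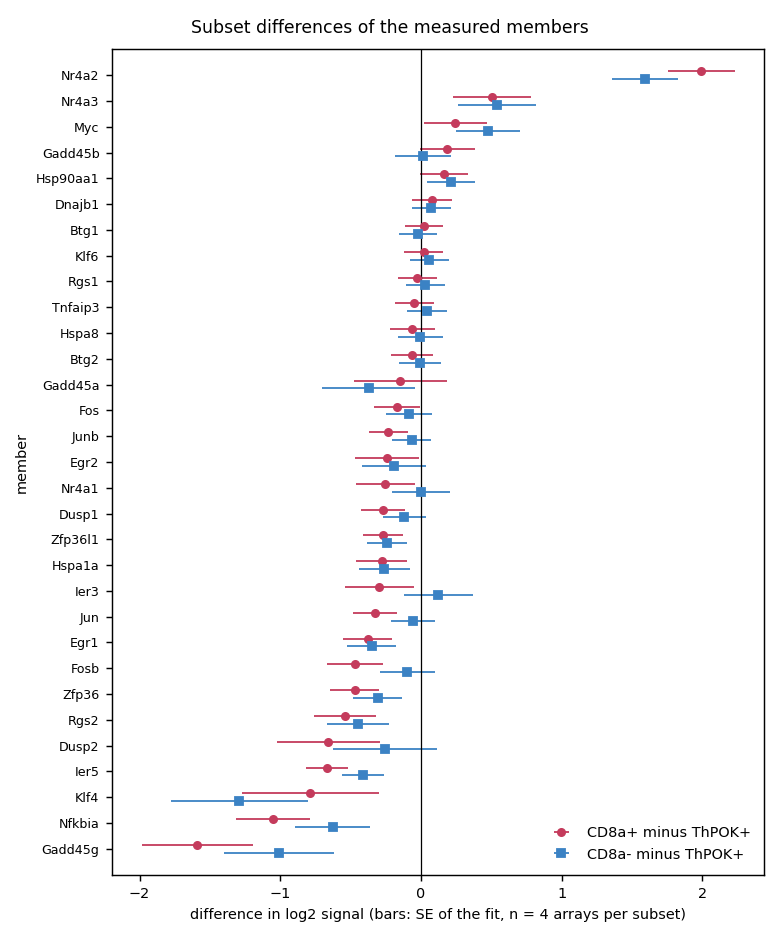
Difference in log2 signal of each measured member between CD8a+ and ThPOK+ cells (circles) and between CD8a- and ThPOK+ cells (squares), ordered by the first; bars are the SE of the fit, with 4 arrays per subset. Nr4a2 lies apart at 1.99 and 1.59, and Gadd45g and Nfkbia at the lower end at -1.59 and -1.05.

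The heat shock members marked 1 set of arrays after quantile normalization, and Hspa1a did so under every scaling tried. Hspa1a, which encodes the heat-inducible Hsp70 chaperone, was strongly present on the 3 arrays of WT replicate 2 and low elsewhere. Its signals in ThPOK+, CD8a- and CD8a+ cells were 11.24, 11.21 and 11.22 in WT replicate 2. They were 5.95, 5.25 and 5.11 in TR replicate 1, 4.95, 5.04 and 4.87 in TR replicate 2 and 6.77, 6.38 and 6.60 in WT replicate 1. The deposited intensity, before any correction, was 2.06e+03, 1.94e+03 and 2.04e+03 in WT replicate 2 and 101 to 207 on the other 9 arrays. The probe was detected on 3 of 3 arrays of WT replicate 2, 3 of 3 of WT replicate 1, 1 of 3 of TR replicate 1 and 0 of 3 of TR replicate 2.

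WT replicate 2 was 25-fold above WT replicate 1 and at least 25.6-fold above TR replicate 2, where an undetected array takes its lowest detected signal. These are ratios of 1 set of 3 arrays to another, with no test. CD8a+ and ThPOK+ cells differed by -0.28 ± 0.18 (adjusted p = 0.689), with -0.85, -0.08, -0.17 and -0.02 in the 4 sets. The subsets lay close within each WT set. In TR replicate 1 the ThPOK+ array alone was detected, and in TR replicate 2 none was, so the differences in TR use undetected signals.

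Hspa1a and its near-identical neighbour Hspa1b may both hybridize to 1 probe. Their RefSeq promoter windows had the same base at 296 of 300 positions. The Hspa1a window is at chr17:34972107-34972406, on the minus strand of GRCm38.p6. Capitals mark a unit of the heat shock element to which HSF1 binds (GAANNTTC or TTCNNGAA).
Hspa1a: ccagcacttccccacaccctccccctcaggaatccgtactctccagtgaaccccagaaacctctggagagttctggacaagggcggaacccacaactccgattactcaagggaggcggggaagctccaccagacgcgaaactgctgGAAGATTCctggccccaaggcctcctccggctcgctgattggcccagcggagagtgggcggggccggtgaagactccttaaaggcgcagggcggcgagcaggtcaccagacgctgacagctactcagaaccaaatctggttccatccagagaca
The unit GAANNTTC was in 2 of 27 member windows (Jun and Hspa1a; 7.41%) and in 9.04% of those of all genes. TTCNNGAA was in 1 (Egr2; 3.7%) and in 9.6% of all.

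The other chaperone members were abundant on all arrays and, after quantile normalization, still higher in WT replicate 2. With no normalization they were also above the other 9 arrays there, and with median scaling only Hspa1a was. Hspa8, the constitutive Hsp70, had 12.12, 12.16 and 11.88 in ThPOK+, CD8a- and CD8a+ cells of WT replicate 2. It had 11.20, 11.04 and 11.14 in TR replicate 1, 11.02, 10.82 and 11.15 in TR replicate 2 and 10.56, 10.85 and 10.49 in WT replicate 1. Hsp90aa1, the inducible Hsp90, had 10.98, 10.76 and 10.96 in WT replicate 2 and 9.40 to 10.03 on the other 9 arrays. Dnajb1, the Hsp40 partner of Hsp70, had 12.69, 12.73 and 12.78 and 11.18 to 11.82. No heat shock member passed the test between subsets, with differences between CD8a+ and ThPOK+ cells from -0.28 (Hspa1a) to 0.16 (Hsp90aa1) and an adjusted p of 0.689 or more. A second, dim Hsp90aa1 probe, detected on 4 arrays, did not single out WT replicate 2. Hsph1, a co-chaperone outside the rule, had 11.39, 11.70 and 11.43 in WT replicate 2 and 8.40 to 10.25 on the other 9 arrays, and Ppp1r15a, the stress-induced phosphatase subunit also outside it, had 8.50, 8.66 and 8.46 and 7.19 to 8.05.

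**Figure D5:**
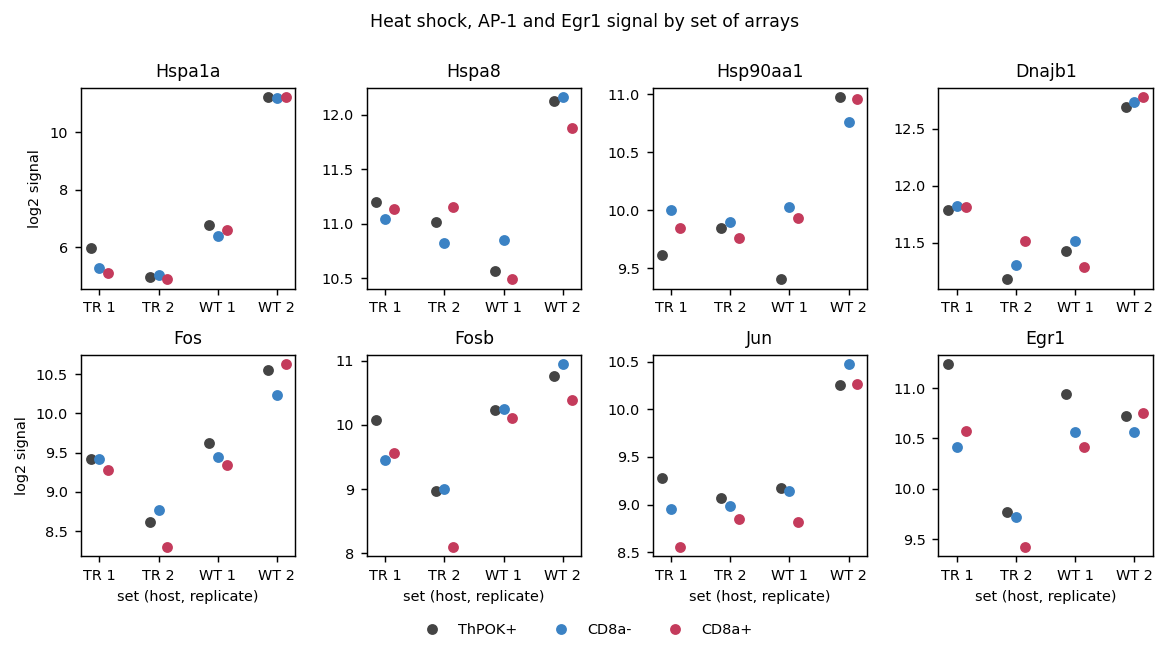
Log2 signal of 4 heat shock genes (top) and of Fos, Fosb, Jun and Egr1 (bottom) by set of arrays, with the 3 subsets as coloured points and a separate scale per panel. Hspa1a is at 11.2 on the 3 arrays of WT replicate 2 and at 4.87 to 6.77 on the other 9, and TR replicate 2 is the lowest set for Fos, Fosb and Egr1.

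Counted over the members, all 3 arrays of WT replicate 2 were above the other 9 for 10 of 31 (32.3%), where 2.77% of all genes were: Nr4a1, Fos, Fosb, Jun, Zfp36, Gadd45b and the 4 heat shock members. No member lay below in this way, where 5.31% of all genes did. Of the 18 members detected on all 12 arrays, 7 were above, against 3.47% of such genes. All 3 arrays of TR replicate 2 were below the other 9 for 8 members (25.8%; 1.72% of all genes): Fos, Fosb, Egr1, Klf4, Klf6, Dusp1, Tnfaip3 and Hspa1a. These counts depend on the scaling. With median scaling in place of quantile normalization, 1 member (Hspa1a) was above in WT replicate 2, against 0.603% of all genes, and 15 were below in TR replicate 2, against 2.24%. With no normalization the counts were 9 (6.13%) and 8 (0.377%). Median intensity before normalization was 229 to 246 in WT replicate 2 and 207 to 234 in TR replicate 2. In replicate 1 it was 114 to 131, so that signals with no normalization lean upward in both sets of replicate 2.

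Set against each other, the sets of replicate 2, whose hosts the tables agree on, parted in 1 direction. All 3 WT arrays were above all 3 TR arrays for 18 of 31 members (58.1%; 7.58% of all genes), and for 0 members were they below (11% of all genes). The count was 16 to 18 under 6 other ways of processing, median scaling among them. The 18 were Nr4a1, Fos, Fosb, Jun, Egr1, Klf4, Klf6, Dusp1, Zfp36, Zfp36l1, Btg2, Gadd45a, Gadd45b, Tnfaip3 and the 4 heat shock members. In replicate 1, all 3 WT arrays were above for 5 members (Fosb, Ier3, Btg2, Rgs1 and Hspa1a; 7.59% of all genes) and below for 5 (Nr4a1, Nr4a3, Zfp36l1, Hspa8 and Dnajb1; 9.04%). With median scaling these became 2 above (Ier3 and Hspa1a; 4.96%) and 7 below (14.2%), and with no normalization 2 (2.95%) and 6 (19.3%), so that Fosb, Btg2 and Rgs1 were no longer above. These counts turn around if the hosts of replicate 1 are exchanged. Under either naming and all 3 scalings, Nr4a1, Hspa8 and Dnajb1 on one side and Hspa1a on the other had opposite orders in replicate 1, while all 4 were higher in WT in replicate 2.

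Arrays of 1 set share their host, replicate number and whatever else was done together, and these cannot be told apart. Erythroid markers (3 of 5 measured) moved with WT replicate 2, at a list mean of 7.35 to 7.83 on its 3 arrays and 5.25 to 6.67 on the other 9, with Hba-a1 and Hbb-b1 above on all 3, and Slc4a1 detected on no array. The B and plasma list (4 genes measured of 8 symbols, Jchain and Igj being symbols of 1 gene) was at 6.35 to 7.47 in WT replicate 2, 6.85 on the array of TR ThPOK+ replicate 1 and 5.27 to 5.73 on the other 8. The set also had the fewest detected probes. Their part in the higher heat shock and AP-1 signals was not tested.

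Over all 12 arrays, no gene was called between hosts. In TR against WT limma called 0 of 10612 genes (0%) and 0 members, while 483 genes (4.55%) had an unadjusted p under 0.05. At that level 7 members were lower in TR cells, against 2.66% of all genes, and none was higher. The fit takes the 3 arrays of a set as independent, although they correlated (consensus correlation 0.478), so these p-values are too small. With the set as a random block 3 members (Hspa1a, Fosb and Fos) and 115 genes had an unadjusted p under 0.05, and with median scaling 1 member (Hspa1a) and 210 genes did. The 7 members were Hspa1a (-3.71 ± 1.10, adjusted p = 0.708), Klf4 (-1.65 ± 0.51), Fosb (-1.25 ± 0.32), Fos (-1.01 ± 0.34), Ier3 (-0.88 ± 0.31), Dusp1 (-0.69 ± 0.28) and Btg2 (-0.47 ± 0.17), the last 6 with an adjusted p of 0.567 to 0.993. With the hosts of replicate 1 exchanged the differences were -2.57 for Hspa1a, -0.88 for Klf4, -0.75 for Fosb, -0.90 for Fos, -0.65 for Dusp1, -0.16 for Btg2 and 0.68 for Ier3, the last in the opposite direction. Within replicate 2 alone Hspa1a was lower in TR by 6.27 (limma adjusted p = 0.0242) and within replicate 1 the difference was -1.14. Those 3 arrays per host are the subsets of 1 set, not replicates of a host.

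Median scaling moved the median difference of all genes between hosts from 0.03 to 0.15. Whether subset differences themselves depended on the host was tested by interaction. For CD8a+ against ThPOK+ cells limma called 0 genes (0%) and 0 members, with 414 genes (3.9%) and 1 member at an unadjusted p under 0.05. That member was Dusp2, with an interaction of -1.62 (unadjusted p = 0.0195), which rests in part on WT replicate 2, where it was not detected. It was -1.15 with the hosts of replicate 1 exchanged (unadjusted p = 0.143) and -0.74 with no background correction (0.0287). For CD8a- against ThPOK+ cells it called 0 genes and 0 members, with 381 genes (3.59%) and 0 members at an unadjusted p under 0.05.

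Further genes of the same pathways were taken from lists written down by name. Among 25 measured of 37 other immediate early genes, 1 passed the test between CD8a+ and ThPOK+ cells, where 0.565% of all genes did. Nfkbiz, an inducible nuclear partner of NF-kB, fell by 0.98 ± 0.17 (SE, limma adjusted p = 0.0399). Its signals were 11.44, 10.57, 10.72 and 11.35 in ThPOK+ cells and 10.38, 9.82, 9.65 and 10.31 in CD8a+ cells, lower in every set and without overlap. The list's median difference was -0.21, against 0.00 over all genes. Klf2, a factor of recirculating T cells, differed by -1.35 ± 0.31 between CD8a- and ThPOK+ cells (adjusted p = 0.186). Per1, a clock gene that is also induced acutely, was the only one of the 25 that lay above the other 9 arrays on all 3 of WT replicate 2, at 8.31, 7.54 and 7.56 against 5.96 to 7.12 (2.77% of all genes; 0 of the 25 with median scaling).

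Of 32 further chaperone and heat shock genes, 30 were measured and none was called in any subset or host comparison. At most 0.565% of all genes were called in any of these, so the absence of calls says little about this list. The median difference of the list was 0.06 between CD8a+ and ThPOK+ cells. Of these 30, 9 were above the other 9 arrays on all 3 of WT replicate 2, where 2.77% of all genes were. With median scaling 0 of 30 were (0.603% of all genes), and with no normalization 6 (6.13%). The 9 include Dnajb4, an Hsp40 (8.88, 8.52 and 8.99 against 6.60 to 7.54), Hspd1, the mitochondrial Hsp60 (10.94, 11.01 and 11.04 against 9.56 to 10.21), and Bag3, a co-chaperone induced by HSF1 (8.10, 7.74 and 8.39 against 5.83 to 7.06). The others were Hspa4, Hspa5, Hsp90ab1, Hspe1, Cacybp and Ubb. Hspb1, the small heat shock protein Hsp27, was high on 2 of the 3 arrays, at 7.75, 7.84 and 5.76 in ThPOK+, CD8a- and CD8a+ cells.

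A list of NFAT and sustained T cell receptor signal genes, 22 of 26 measured, had 1 higher and 2 lower calls between CD8a+ and ThPOK+ cells, where 0.565% of all genes were called. The 60 calls over all genes in that comparison became 4 with no replicate block, 12 with the replicate block and 0 with only the 8 arrays compared. Ccl4, a chemokine, rose by 1.92 ± 0.27 (SE, limma adjusted p = 0.0193). Tnfrsf4 (OX40), a costimulatory receptor, fell by 2.26 ± 0.26 (adjusted p = 0.0112), and Dgka, a kinase that dampens receptor signalling, fell by 1.37 ± 0.22 (adjusted p = 0.0342). The median of the list was -0.13. Tnfrsf4 also fell by 2.13 ± 0.26 between CD8a- and ThPOK+ cells (adjusted p = 0.0314). No gene of this list was above the other 9 arrays on all 3 of WT replicate 2, where 2.77% of all genes were.

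The promoters of 27 of the 34 members were searched on both strands for the motifs of the factors named here. CRE (TGACGTCA), bound by CREB and ATF proteins, was in 2 windows (Dusp1 and Btg2; 7.41%) and in 2.03% of the windows of all genes. The CArG box, bound by serum response factor, was in 2 (Egr2 and Zfp36; 7.41%) against 1.81%. An NF-kB site was in 8 (Nr4a1, Fos, Fosb, Egr2, Ier3, Nfkbia, Tnfaip3 and Hspa1a; 29.6%) against 9.55%. An AP-1 site (TGANTCA) was in 2 (Zfp36l1 and Tnfaip3; 7.41%) against 8.97%. Motifs may overlap each other. Ier2, Egr1, Rgs1, Egr3, Hspa8, Myc and Hsp90aa1 were not searched. A match describes the letters of a window and is not a measured binding site.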

How the data were processed

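Total RNA of 12 sorted samples was measured on Illumina MouseRef-8 bead arrays, from RNA extracted with Trizol and amplified as biotinylated cRNA, per the labels' protocols. The deposited intensity per probe is not normalized and was exported with GenomeStudio 1.0.6, per the submitters' processing notes. The deposited score per probe rises with signal and was taken as the complement of a detection p-value. A deposited log2 table was found to be the same signals shifted per array and centred on the median of each set of 3 arrays (100% of rows and sets), in the same direction as the intensities. Its scale and centring are otherwise not stated in the sources used here.

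With limma 3.58.1 in R 4.3.3, intensities were corrected by normexp with an offset of 16, quantile-normalized and put on the log2 scale. Of 25697 probes, 14635 had a detection p under 0.05 on at least 2 arrays. The brightest probe stood for each of 10612 genes. Symbols were current in the GRCm38.p6 RefSeq table for 20736 probes, were an older symbol of 1 gene for 3841, and were kept as in the file for 1120. The number of arrays limits the precision. Subset and interaction fits had the 4 sets as a fixed block. The host fit had 6 group means, with the set as a random block (duplicateCorrelation) as an alternative. Tests were two-sided with Benjamini-Hochberg adjustment over all genes, at 0.05, with 6 residual degrees of freedom, or 4 for interactions.

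Replicate numbers were taken as pairing arrays: differences between replicates 1 and 2 correlated at 0.356 to 0.657 in 15 of 15 pairs of groups. The pairing thus rests on the data and not on a label. The members, gene lists and tests were chosen with earlier results of these data known. Full values are given for the Nr4a genes, called members and the 2 members of each role group with the widest range. Alternatives changed the block, arrays, background correction, scaling, probe filter, probe choice, variance model and hosts of replicate 1, and left out single arrays. The fits were tested on simulated data. Promoter sequences are RefSeq's on GRCm38.p6.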

Additional observations from a re-analysis of the deposited data

Results flagged for a closer look

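Each of the 31 measured members was looked at in the 4 arrays of each subset, 93 groups in all, and 7 values lay so far from the nearest of the other 3 that the gap took up most of the group's range (Dixon's test). Chance alone flags about 1 in 20 such groups. Of the 7 values, 4 are from WT replicate 2. In CD8a- cells this array had 10.48 for Jun (next 9.14), 12.16 for Hspa8 (next 11.04) and 10.76 for Hsp90aa1 (next 10.03). In CD8a+ cells it had 10.96 for Hsp90aa1 (next 9.94). The other 3 are small gaps or single low values. Btg1 was 12.87 in CD8a- cells of WT replicate 1 (next 12.66), and Rgs1 was 12.69 in CD8a+ cells of WT replicate 1 (next 12.60). Gadd45a was 6.23 in ThPOK+ cells of TR replicate 2 (next 7.17). The causes of these gaps were not tested.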

How the results depend on the processing

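Between CD8a+ and ThPOK+ cells the count of 60 called genes was 4 with no replicate block, 12 with the replicate block (6 group means plus the replicate number), 0 with only the 8 arrays compared (904 at an unadjusted p under 0.05), 3 with replicate 1 alone, 0 with replicate 2 alone (743 unadjusted) and 23 without the set of WT replicate 2. It was 10 without the 3 arrays highest in Paneth and goblet markers, an alternative chosen after seeing the data, as were those of the set counts. It was 127 with the deposited log2 table, 137 with no background correction, 100 with the mean of all kept probes and 149 with eBayes trend and robust. Leaving out 1 array gave 2 to 78. For ThPOK+ arrays the count was 2 (TR replicate 1 omitted), 32 (TR replicate 2) and 17 (WT replicate 2). For CD8a+ arrays it was 5 (TR replicate 1), 17 (TR replicate 2) and 26 (WT replicate 2), and for CD8a- arrays 29 (TR replicate 1), 30 (TR replicate 2) and 39 (WT replicate 1).

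The 1 called member became 0 with no replicate block, the replicate block, the 8 arrays, either replicate alone, and without the WT replicate 2 or Paneth-rich arrays. It became 2 with the deposited table, and was 0 to 2 when 1 array was left out. The Nr4a2 difference stayed positive, at 1.40 to 2.07 over 14 alternatives, with an adjusted p of 0.00141 to 0.608, and at 1.84 to 2.23 when 1 array was left out. Gadd45g ran from -1.95 to -1.01 over the alternatives.

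Between CD8a- and ThPOK+ cells the count of 6 genes was 1 with no replicate block or with the replicate block, 3 with replicate 1 alone, and 0 with the 8 arrays (909 unadjusted), replicate 2 alone (538), without WT replicate 2 (916) or without the Paneth-rich arrays (827). It was 56 with the deposited table, 44 with no background correction, 31 with median scaling, 16 with detection on at least 6 arrays, 22 with the mean of probes and 57 with trend and robust. It was 0 to 14 when 1 array was left out. Omitting a ThPOK+ array gave 1 (TR replicate 1), 0 (TR replicate 2), 14 (WT replicate 1) and 0 (WT replicate 2). Omitting a CD8a- array gave 0 (either TR array or WT replicate 1) and 2 (WT replicate 2), and omitting a CD8a+ array gave 0 (TR replicate 1), 1 (TR replicate 2) and 12 (WT replicate 2). In 6 of these 14 alternatives (deposited table, no background correction, median scaling, at least 6 arrays, mean of probes, trend and robust) 1 member, Nr4a2, was called, with an adjusted p of 0.00891 to 0.0484.

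Between hosts the count of 0 genes was 1 with the hosts of replicate 1 exchanged, 8 with that and the replicate block, 17 with replicate 1 alone, 2 with replicate 2 alone and 0 to 13 when 1 array was left out (13 without WT CD8a+ replicate 1). It was 0 with the set as a random block, an alternative chosen after seeing the data (115 genes unadjusted against 483). Members called were 1 with replicate 2 alone (Hspa1a). Ier3 reversed to 0.68 with the hosts exchanged, with and without the replicate block. The counts between CD8a+ and CD8a- cells and of both interactions were 0 in every alternative run.

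Of the set counts, members above in WT replicate 2 were 1 and members below in TR replicate 2 were 15 with median scaling. Members with WT above TR in replicate 1 were 2 with median scaling or no normalization. The causes of these changes were not tested, except that fits on fewer arrays have fewer residual degrees of freedom. Low detection in replicate 2 limits the dim members: 13 of 31 were not detected on every array.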
